A study of Mus musculus with 8 samples.

Results

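Day-4 C2C12 control cells, a mouse muscle cell line that had been selected with a control (Neo) retrovirus and then made to differentiate, were read against the reference RNA that shared every array with them. The 4 Neo arrays, of 8 in the series, were taken by their labels; the other 4 hold cells with an HDAC4 retrovirus and were not used. Per the labels, the cells came from the C2C12 line of C3H mice, carried a stably selected Neo retrovirus, reached 90% confluence and were then kept for 4 days in 2% horse serum. No clone, passage or separate culture is named, so the 4 samples may be technical repeats and the p-values measure only the spread between them. The cells' RNA was labelled with Cy5 and the murine reference RNA with Cy3 on all 4 arrays. A difference between dyes and a difference between cells and reference therefore cannot be told apart, and the spread of the reference itself was not measured. The labels call the second channel murine reference RNA, while its labelling protocol names liver. It is called the reference here, and its source was not tested. No count of fused or unfused cells is given, and the labels name the source as myoblasts.

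Skeletal muscle is built when proliferating myoblasts leave the cell cycle, switch on the bHLH factors MyoD and myogenin together with MEF2 proteins, and fuse into myotubes that fill with sarcomeres. C2C12 cells run this programme in culture when serum is withdrawn, but not every cell fuses, and unfused myoblasts stay beside the myotubes. The myotubes formed are not innervated and make many fetal isoforms of muscle proteins.

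All values below are log2 ratios, likely cells over reference, after each array was centred on its median, and they are listed in the order of replicates 1 to 4. The dyes are in the labels but the direction of the ratio is not. It was read from the muscle genes, so their high position is a description of how the sign was set, and the sign of every other value depends on it. A feature is a gene, as the mean of its probes, or an unnamed probe, and it needed a value on all 4 arrays. The rule for missing values was not stated, so counts over tested genes describe those genes and not whole lists. Of 31769 probes 17326 had one, which gave 15203 features, 9022 of them named genes. In limma 10341 features, 68.0%, differed from 0 at an adjusted p under 0.05, 5084 (33.4%) higher and 5257 (34.6%) lower. With a change of at least 2-fold as well, 29.5% were called: 2047 (13.5%) were higher and 2436 (16.0%) lower. Since 68.0% of all features pass, a call alone says little of a gene, and sizes and directions are read against these shares. The exact sign-flip test of a single gene over 4 arrays cannot go below p = 0.125, so single genes carry the limma p alone. A level above the reference can come from more RNA per cell or from more cells that make it, and these cannot be told apart in bulk samples.

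The deposited ratios are rounded, and this sets what the largest values can say. Ratios from 0.1 to 10 have 3 decimals, those from 10 to 100 have 2, and those of 100 or more have 1. Ratios that become whole when multiplied by 10 (within 0.001) were more frequent above 1 than below it: 15.9% of those from 1 to 2 and 57.6% of those from 10 to 100, against 1.01% of those from 0.1 to 1. Reference signals raised to a minimum of 10 units would give such ratios, and a ratio against that floor is a lower bound. At 100 or more every ratio is of this kind by its rounding, so the floor cannot be recognised there. Of 1326 named genes at least 2-fold higher, 512 had at least 1 value that met the floor rule. The rule needs a ratio of at least 1, so genes at least 2-fold lower could hardly meet it, and 2 of 1428 did. That difference is set by the rule. Where the reference was at a recognised floor on all 4 arrays the values are lower bounds, and the text says so beside them. Genes are not ordered by such values.

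The 4 genes chosen to mark muscle cells lay far above the reference on every array. Ckm, the muscle creatine kinase, stood at 9.82, 9.13, 9.68 and 9.18, a mean of 9.45 ± 0.35 (SD, n = 4), a ratio of 700.2 after centring (adjusted p = 2.17e-07). Cav3, the muscle caveolin, stood at 7.79, 7.08, 7.11 and 7.44, a mean of 7.35 ± 0.33 (SD, n = 4) (adjusted p = 3.74e-07). Abra, also called STARS, an actin-binding activator of SRF signalling, stood at 5.89, 6.13, 6.47 and 6.42, at least 74.9-fold over the floor of the reference on all 4 arrays (adjusted p = 4.31e-07). Chrng, the fetal gamma subunit of the muscle acetylcholine receptor, stood at 6.71, 7.06, 6.55 and 6.66, a mean of 6.75 ± 0.22 (SD, n = 4) (adjusted p = 2.87e-07). Replicate 1 was the highest array for Ckm and Cav3 and the lowest for Abra, and no array came near 0 for any of them. Since the sign was read from muscle genes, their side is no check of the label, and no other check of it was made.

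The promoters of the markers are shown because MyoD and myogenin bind E-boxes, CANNTG, and favour the form CAGCTG. Each runs from 250 bases before to 50 after the start in RefSeq's GRCm38.p6 annotation, 5′ to 3′ on the gene's strand, with CAGCTG, which reads the same on both strands, in capitals. Abra has no entry in the table. The windows are chr7:19410844-19411143 (plus strand) for Ckm, chr6:112459255-112459554 (plus) for Cav3 and chr1:87205561-87205860 (plus) for Chrng.
Ckm: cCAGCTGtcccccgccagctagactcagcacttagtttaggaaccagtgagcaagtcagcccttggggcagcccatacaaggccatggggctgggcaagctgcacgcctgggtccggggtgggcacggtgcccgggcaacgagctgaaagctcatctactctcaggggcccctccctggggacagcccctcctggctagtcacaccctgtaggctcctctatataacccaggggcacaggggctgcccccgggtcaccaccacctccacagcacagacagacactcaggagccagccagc
Cav3: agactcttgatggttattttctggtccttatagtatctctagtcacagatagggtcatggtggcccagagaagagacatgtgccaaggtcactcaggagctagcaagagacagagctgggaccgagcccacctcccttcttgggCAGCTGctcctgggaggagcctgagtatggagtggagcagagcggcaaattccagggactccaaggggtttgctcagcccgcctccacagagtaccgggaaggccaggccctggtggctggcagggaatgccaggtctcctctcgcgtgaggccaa
Chrng: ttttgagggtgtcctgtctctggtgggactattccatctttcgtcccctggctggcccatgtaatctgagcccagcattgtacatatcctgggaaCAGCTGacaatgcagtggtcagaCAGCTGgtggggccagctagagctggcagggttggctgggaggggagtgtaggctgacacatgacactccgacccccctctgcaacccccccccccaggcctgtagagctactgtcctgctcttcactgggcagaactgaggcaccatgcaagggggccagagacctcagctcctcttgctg
CAGCTG occurred 1 time in each of the windows of Ckm and Cav3 and 2 times in that of Chrng. Of the 73 tested genes of the contractile, triad and synapse lists below, 54 had 72 promoter windows, and 22 of these (30.6%) held CAGCTG, against 16.3% of all 32851 windows of the table. Any CANNTG, of which CAGCTG and CACCTG are forms, was in 75% against 72.3%, and CACCTG in 27.8% against 20.2%. The CArG box that SRF binds was in 5 windows (6.94% against 1.63%), and the MEF2 consensus in 2 (2.78% against 3.19%). Both strands were searched throughout. A match is a description of the letters, not a binding site.

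**Figure D1:**
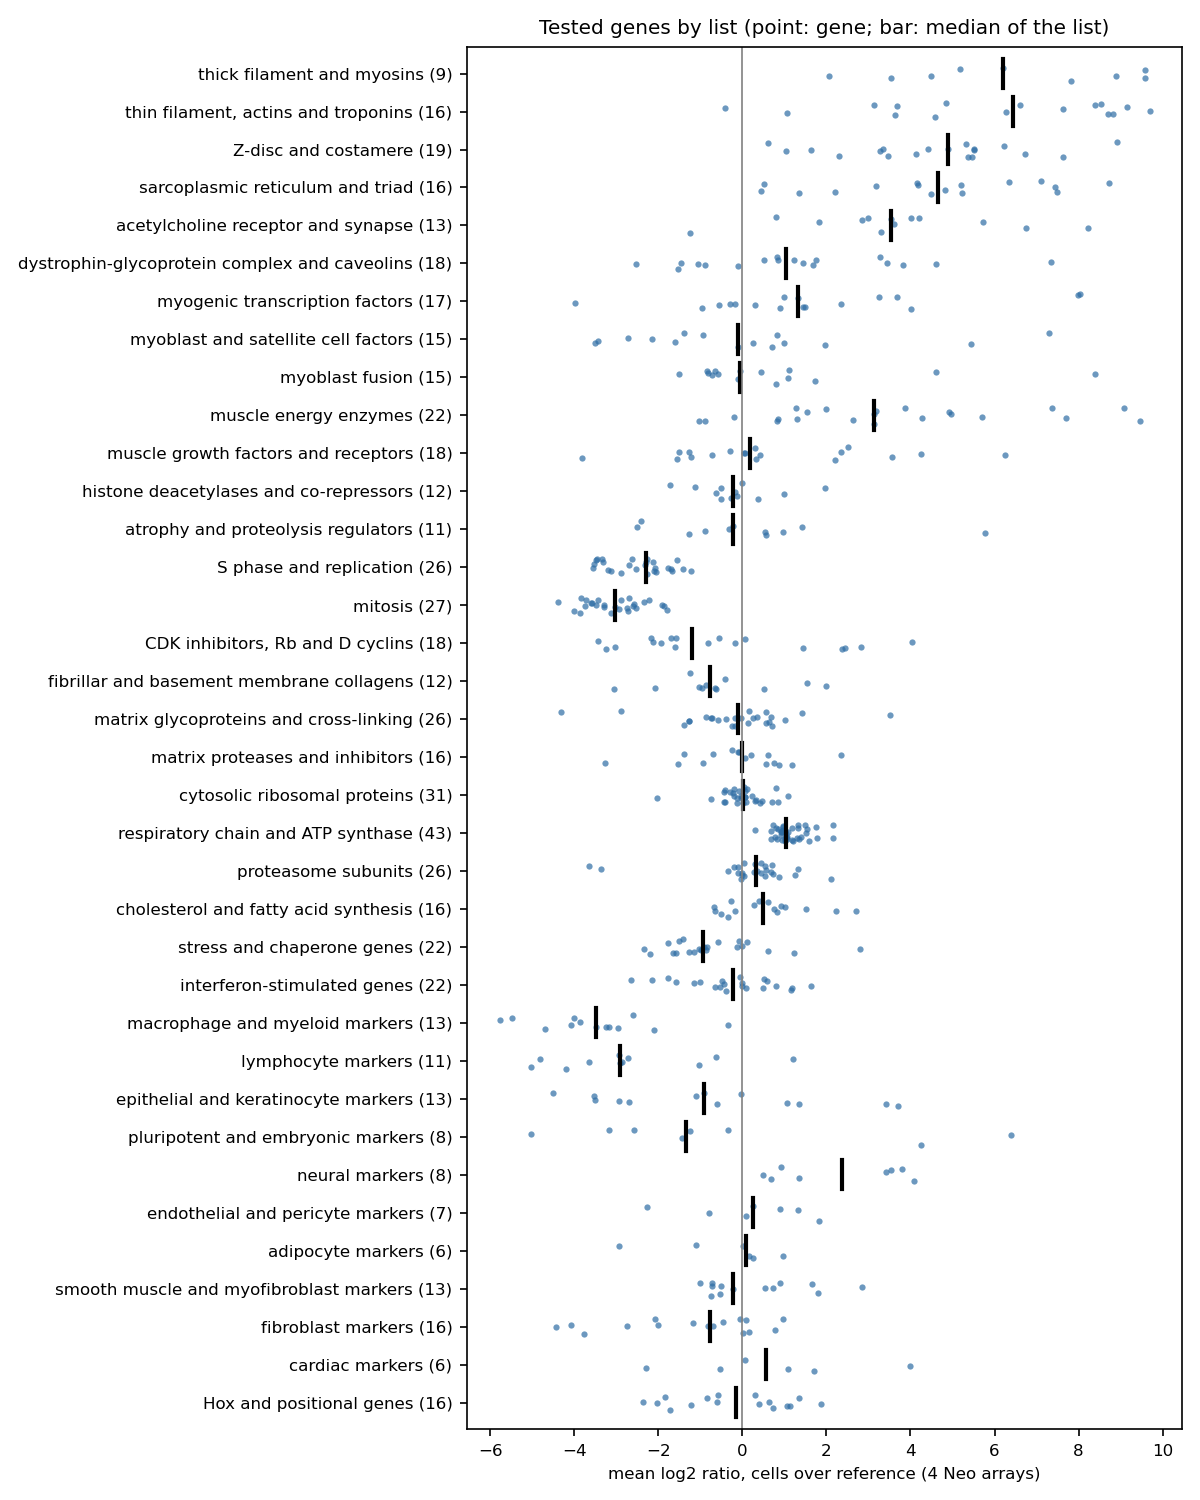
Mean log2 ratio (cells over reference, 4 Neo arrays, x axis) of each tested gene in 36 gene lists (y axis, with the number tested), as 1 point a gene with the list's median as a black bar and the line at 0 marking the centre of the arrays. The contractile, triad and synapse lists have medians right of 0, 6.45 for the thin filament, the replication and mitosis lists lie left of 0 with every member below it, and the ribosomal proteins lie around 0 with a median of 0.0086.

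The motor of the sarcomere was far above the reference. Of 23 listed genes of the thick filament, its M-band and titin, 9 were tested, and all of these were at least 2-fold higher, where 13.5% of all features were, with a median of 6.21 against -0.017 over all features. No probe names 12 of the others, the embryonic and perinatal myosins Myh3 and Myh8 among them, and the ventricular light chains Myl2 and Myl3 had values on fewer than 4 arrays. Mylpf, the fast phosphorylatable light chain, stood at 9.60, 9.45, 9.64 and 9.65, the gene with the smallest p of the table (adjusted p = 1.69e-07). Myl4, the embryonic and atrial light chain, stood at 10.26, 9.39, 9.60 and 9.10, highest on replicate 1. Mybph, the myosin-binding protein H of fast muscle, stood at 8.51, 8.87, 8.69 and 9.49, and the M-band gene Myom2 had a mean of 7.82 ± 0.17 (SD, n = 4). Myh2, the fast IIa heavy chain, had a mean of 6.21 ± 0.38 (SD, n = 4), and Myh7, the slow and cardiac heavy chain, one of 4.49 ± 0.29 (SD, n = 4). Only 1 of the 5 Myh7 probes had a value on all 4 arrays, so that mean rests on a single probe. Heavy chain genes are near copies of each other and their probes may share signal. Mybpc2, the fast myosin-binding protein C, stood at 1.95, 1.92, 2.06 and 2.28. All 9 had at least 1 value that met the floor rule, so no order among them is drawn, neither of their distance from the reference nor of how much of each myosin the cells held.

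All but 1 of the tested thin filament genes were higher. Of 16 tested members, 15 were at least 2-fold higher and 1 was lower, where 34.6% of all features were lower, with a median of 6.45. The calcium-binding troponin C genes both stood high, the fast Tnnc2 at 10.48, 9.52, 9.59 and 9.16 and the slow and cardiac Tnnc1 at 9.49, 8.60, 8.41 and 8.35. Slow Tnni1, with a mean of 8.81 ± 0.30 (SD, n = 4), and fast Tnni2, with 8.38 ± 0.27 (SD, n = 4), encode the inhibitory subunit. For the tropomyosin-binding subunit, fast Tnnt3 had a mean of 8.54 ± 0.19 (SD, n = 4), cardiac Tnnt2 7.64 ± 0.11 (SD, n = 4) and slow Tnnt1 6.62 ± 0.16 (SD, n = 4). Fast, slow and cardiac forms thus lay above the reference side by side. Actc1, the cardiac alpha-actin that is the fetal form in skeletal muscle, stood at 9.51, 8.90, 9.04 and 9.13. A probe annotated as ACTA1 with an identifier that is not in the mouse table, and so is outside the list, stood at 9.88, 8.89, 8.94 and 8.82. Actins are near identical in sequence and the probes may share signal. Tpm1, an alpha-tropomyosin gene that non-muscle cells also express, was the exception at -0.51, -0.22, -0.21 and -0.73 (adjusted p = 0.0227). Its 4 probes disagreed, with means from -2.60 to 2.64, and the call was lost without replicate 4 (adjusted p = 0.0830), so no direction is drawn for this gene. Tpm2, beta-tropomyosin, had a mean of 3.67 ± 0.28 (SD, n = 4). Its 3 probes ranged from 1.72 to 5.24, and those of Tpm3 stood at 0.88, 1.52 and 7.0.

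**Figure D2:**
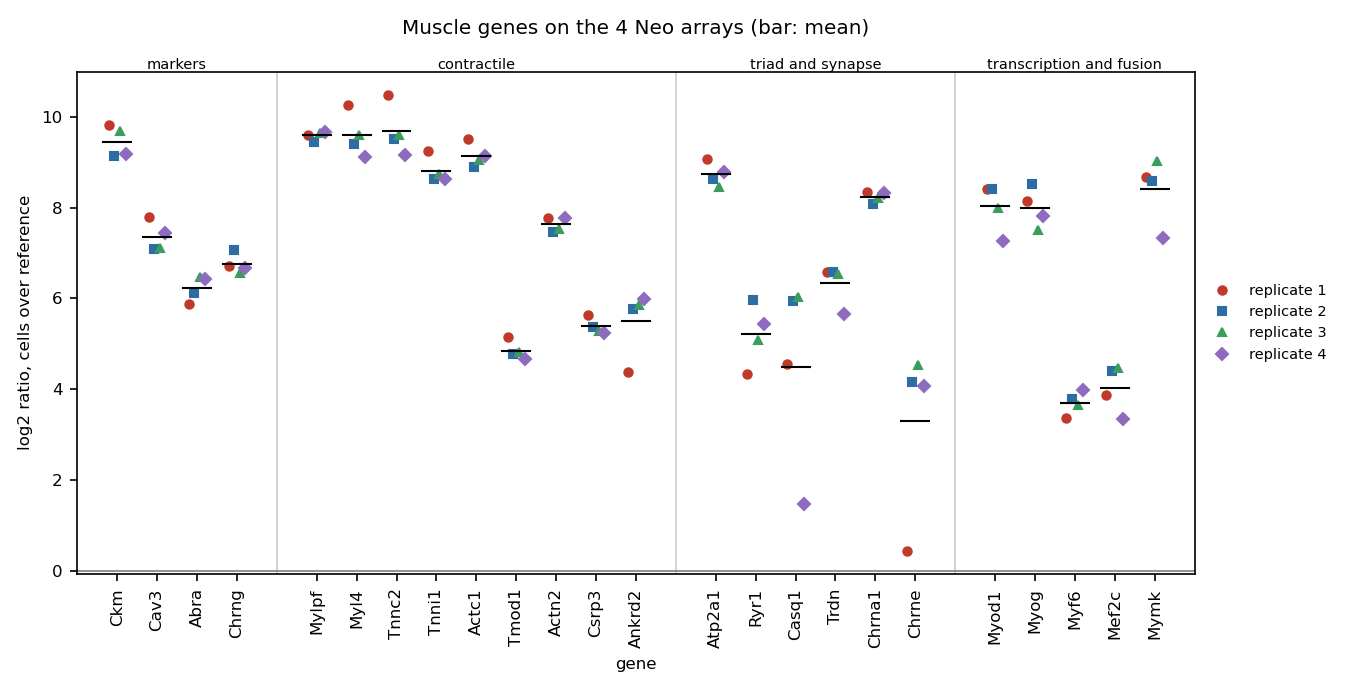
Log2 ratio (cells over reference, y axis) of 24 muscle genes (x axis) on each of the 4 Neo arrays, 1 symbol per array, with the mean as a bar, grouped as markers, contractile proteins, triad and synapse, and transcription and fusion. All 24 lie above 0 on every array. Casq1, the gene with the widest spread shown, has its lowest value on replicate 4, and Chrne has its lowest on replicate 1.

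Genes of the Z-disc and costamere, which anchor the filaments, were all higher. Of 19 tested, 19 were higher, where 33.4% of all features were, and 18 of them by at least 2-fold, with a median of 4.89. Smpx, a small costamere protein, stood at 8.76, 8.99, 8.84 and 9.06, and Actn2, the alpha-actinin of the Z-disc, at 7.77, 7.47, 7.53 and 7.78. The fast alpha-actinin Actn3 had a mean of 5.46 ± 0.30 (SD, n = 4). Des, the intermediate filament desmin, had a mean of 6.72 ± 0.16 (SD, n = 4). Csrp3, a LIM protein of the Z-disc, stood at 5.63, 5.36, 5.29 and 5.25, at least 41.6-fold over a reference at its floor. The stretch-responsive ankyrin repeat gene Ankrd2 stood at 4.38, 5.76, 5.86 and 6.0, all lower bounds, with replicate 1 apart below the rest, and its relative Ankrd1 had a mean of 2.29 ± 0.29 (SD, n = 4). Flnc, the muscle filamin, was the lowest at 0.60 ± 0.39 (SD, n = 4). Its 2 probes had means of -0.24 and 1.45, and its call was lost without replicate 2, 3 or 4 in turn (adjusted p = 0.0559, 0.0591 and 0.0605). Tcap and Myoz3 had no value on any of the 4 arrays.

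Genes of calcium storage and release were higher over the 4 arrays. All 16 tested genes of the sarcoplasmic reticulum and triad were higher, where 33.4% of all features were. Of the 16, whose median was 4.65, 14 were at least 2-fold higher, against 13.5% of all features. The 2 nearest to 0 were the least stable. Ryr3, another release channel, had a mean of 0.52 ± 0.31 (SD, n = 4) and lost its call without replicate 2, 3 or 4 in turn (adjusted p = 0.0684, 0.0640 and 0.0608). Asph, whose locus also encodes junctin, had a mean of 0.45 ± 0.32 (SD, n = 4) and lost its call without replicate 2 or 3 (adjusted p = 0.116 and 0.109). It rested on 4 probes with means from -1.22 to 3.05, so no direction is drawn for it. Atp2a1, the fast calcium pump SERCA1, stood at 9.06, 8.62, 8.46 and 8.78, and the widely expressed pump Atp2a2 at 1.94, 1.27, 1.18 and 1.02. The release channel Ryr1 had a mean of 5.21 ± 0.68 (SD, n = 4), from 2 probes at 4.23 and 6.19. The voltage sensor of the triad was measured through Cacna1s, the pore, at least 9.07-fold over a reference at its floor, through Cacnb1 at 4.53, 4.09, 4.19 and 3.82 and through the gamma subunit Cacng1 at 8.15, 8.16, 7.25 and 6.25. Trdn, triadin, which links the release channel to calsequestrin, stood at 6.58, 6.57, 6.54 and 5.66, lower bounds on all 4. Casq1, the calsequestrin of fast muscle, stood at 4.56, 5.93, 6.02 and 1.46, and Casq2, the slow and cardiac form, at 8.45, 5.95, 8.02 and 6.04. The Casq1 value of replicate 4 lay 3.10 log2 units below the next array. On that array the ratio was not at the recognised floor and on the other 3 it was. Jph1 and Jph2, the junctophilins that hold the triad together, had means of 4.19 ± 0.45 and 4.81 ± 0.41 (SD, n = 4). Sln, the pump inhibitor sarcolipin, had no value on any array, and Pvalb, parvalbumin, had none on 1 of them.

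Subunits of the acetylcholine receptor and their organisers were higher, except agrin. Of 13 tested genes 12 were higher and 1 lower, against 33.4% and 34.6% of all features, with a median of 3.54. The receptor subunits were Chrna1 at 8.34, 8.08, 8.20 and 8.33, Chrnb1 at 3.93, 3.41, 3.66 and 3.41, Chrnd at 4.98, 5.99, 6.41 and 5.57, all lower bounds, and Chrng as given above. Chrne, which replaces the gamma subunit in the adult receptor, stood at 0.44, 4.16, 4.53 and 4.07, with replicate 1 far below the other 3 and its reference at the floor on all 4. The receptor-clustering protein Rapsn had a mean of 4.01 ± 0.30 (SD, n = 4), the co-receptor Lrp4 2.84 ± 0.45 (SD, n = 4) and the adaptor Dok7 0.79 ± 0.21 (SD, n = 4). The kinase Musk, the partner of Lrp4, was at least 7.91-fold over a floored reference, and Ache, acetylcholinesterase, at least 18.4-fold. Agrn, the agrin gene, which makes the clustering signal of motor nerves and is also made elsewhere, was the lower member at -2.24, -0.77, -0.85 and -1.16 (adjusted p = 0.00381).

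The list of the dystrophin-glycoprotein complex, named in the title of the study, also holds caveolins and membrane repair genes, and it was mixed. Dystrophin, dystroglycan and the sarcoglycans measured were each called higher, and the caveolins Cav1 and Cav2 were among the lower genes. Of 18 tested genes of the complex, of caveolins and of membrane repair, 12 were higher and 5 lower, with a median of 1.04. Of all features 33.4% were higher and 34.6% lower. The membrane repair genes Capn3, calpain 3, and Dysf, dysferlin, had means of 3.82 ± 0.29 and 3.45 ± 0.097 (SD, n = 4). Sgcb, Sgcd and Sgce, the sarcoglycans measured, had means of 1.44 ± 0.11, 0.84 ± 0.16 and 0.50 ± 0.075, and dystroglycan, Dag1, one of 1.24 ± 0.29. Dmd, dystrophin, rested on 2 probes at the floor of the reference and stood at 0.90, 0.91, 0.71 and 0.83, which are lower bounds. Utrn, the dystrophin relative utrophin, stood at -0.53, 0.15, 0.042 and -0.11 and did not pass (adjusted p = 0.499). The caveolins went opposite ways: Cav3 as above, but Cav1, of fibroblasts, endothelium and fat, at -1.38, -1.52, -1.43 and -1.54 and Cav2 at -3.11, -2.23, -2.34 and -2.42. Of the syntrophins Sntb1 was at least 24.2-fold higher over a floored reference, and Sntb2 was lower at -1.05 ± 0.29 (SD, n = 4).

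Among muscle transcription factors Myod1 and Myog had ratios of 100 or more on every array, where the floor cannot be recognised. Of 17 tested, 11 were higher, 3 lower and 3 not called, where 33.4% of all features were higher and 34.6% lower. Myod1 stood at 8.41, 8.41, 8.0 and 7.27 and Myog, myogenin, the factor that starts terminal differentiation, at 8.15, 8.51, 7.51 and 7.82. Myf5, the early determination factor, stood at 0.99, 1.56, 1.89 and 1.51. Myf6, also called MRF4, was at least 12.9-fold over a floored reference. The MEF2 family, the partners of class IIa deacetylases such as HDAC4, was spread over both sides: Mef2c had a mean of 4.02 ± 0.53 (SD, n = 4), Mef2d 1.44 ± 0.13 (SD, n = 4) and Mef2a 1.32 ± 0.80 (SD, n = 4), while Mef2b, which lymphoid cells express, was at -3.42, -3.93, -4.53 and -4.03. Tead4, a partner of YAP and VGLL proteins that MyoD switches on, had a mean of 3.25 ± 0.12 (SD, n = 4).

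The medians of these muscle lists rest in part on ratios at the floor of the reference. With every gene left out that had a value at the floor, 5 of the Z-disc genes remained, all higher with a median of 1.64, and 6 of the triad, all higher with a median of 1.78. The thin filament list kept 2 genes, Tmod1 and Tpm1, and the synapse list 3 with a median of 1.83. The dystrophin-glycoprotein list kept 12 genes, 6 higher and 5 lower, with a median of 0.20, and the transcription factors 11, 5 higher and 4 lower, with a median of 0.30. Each tested gene of the thick filament list had at least 1 value that met the floor rule, so no median could be given for it in this way.

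Factors of the myoblast and satellite cell state were split. Of 24 listed genes 15 were tested, 6 higher and 7 lower, against 33.4% and 34.6% of all features. Pax7, Msc, Ncam1 and Fgfr4 had no value on any array. Cdh15, M-cadherin, stood at 7.87, 6.93, 7.17 and 7.22 and Itga7, the laminin receptor chain of muscle, at 5.38, 5.54, 5.36 and 5.50. The Id proteins, which block bHLH factors by pairing with them, were all lower: Id1 at -1.22, -1.5, -1.43 and -1.44, Id2 at -2.21, -4.02, -3.81 and -3.66 and Id3 at -3.89, -3.33, -3.21 and -3.64. Met, the receptor for hepatocyte growth factor, had a mean of -2.16 ± 0.29 (SD, n = 4). Of the Notch pathway, which keeps satellite cells quiescent, Dll1 was at least 3.89-fold over a floored reference, and Notch1, Notch3 and Jag1 had means of 0.82 ± 0.47, 0.71 ± 0.22 and 1.0 ± 0.26 (SD, n = 4).

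Among fusion genes Mymk, the gene of myomaker, had ratios of 100 or more on every array, where the floor cannot be recognised. It encodes a membrane protein that myoblasts need to fuse, and stood at 8.67, 8.58, 9.03 and 7.32, with a mean of 8.40 ± 0.74 (SD, n = 4) (adjusted p = 1.99e-06). Jam2, an adhesion molecule, had a mean of 4.61 ± 0.48 (SD, n = 4) with the reference at the floor on 3 arrays, so the distance between the 2 genes was not measured, and the cadherin Cdh2 and its partner Cdon had means of 1.72 ± 0.26 and 1.10 ± 0.35. Of the 15 tested genes 7 were higher and 6 lower, against 33.4% and 34.6% of all features, with a median of -0.050. The lower ones included Ctnnb1, beta-catenin, at -0.73 ± 0.25 (SD, n = 4) and the Rac activator gene Dock1 at -0.85 ± 0.15 (SD, n = 4).

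Most energy genes with a muscle form were higher. Of 22 tested 19 were higher, 17 by at least 2-fold, against 33.4% and 13.5% of all features, with a median of 3.13. Mb, myoglobin, stood at 9.44, 9.01, 9.22 and 8.62. Muscle forms of glycolytic and glycogen enzymes were Pygm, the glycogen phosphorylase, at 7.37 ± 0.30 (SD, n = 4), Pgam2 at 5.94, 5.71, 5.67 and 5.49, Eno3, beta-enolase, at 5.09, 5.06, 5.03 and 4.65 and Pfkm at 2.96, 2.57, 2.42 and 2.61. Of the members not called higher, Gapdh stood at 0.41, -0.43, -0.39 and -0.41 and Ldha at -1.29, -0.50, -1.30 and -0.99. Hk2, the hexokinase of muscle, heart and fat, was lower at -0.88, -0.86, -0.74 and -1.10. Gapdh was not called over the 4 arrays, with replicate 1 above 0 and the others below, and without replicate 1 its mean was -0.41 (adjusted p = 0.00681). Ckb, the brain-type creatine kinase, was high as well, at 5.64, 4.86, 4.61 and 4.54. The heart and muscle isoforms of cytochrome oxidase, Cox6a2 and Cox8b, stood at 4.59, 4.05, 4.17 and 4.33 and 7.45, 8.33, 7.61 and 7.44. Among the 14 energy genes with no value at the floor 11 were higher and 2 lower, with a median of 1.43. Slc2a4, the insulin-responsive transporter GLUT4, was at least 8.79-fold over a floored reference.

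Growth factor genes lay on both sides of the reference. Igf2, the autocrine factor of differentiating myoblasts, stood at 3.74, 3.50, 3.62 and 3.36, and Igfbp5, the binding protein that C2C12 cells secrete as they differentiate, at 5.61, 6.80, 6.48 and 6.09. Igf1 stood at -0.78, 0.67, 0.50 and -0.12 and was not called, and its receptor Igf1r was lower at -0.73 ± 0.28 (SD, n = 4). Fst, follistatin, which binds myostatin and activins, stood at 4.57, 4.39, 4.09 and 3.93, and Nog, noggin, which binds BMPs, was at least 5.68-fold over a floored reference. Bmp4 itself was at -2.62, -1.09, -1.04 and -1.26, and Grem1, another BMP antagonist, at -3.09, -4.31, -4.19 and -3.70. Mstn, myostatin, had no value on any array. Of the growth factor list 7 of 18 were higher and 7 lower, where 33.4% of all features were higher and 34.6% lower. Nothing is read from this split.

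Deacetylases gave few large values. Of 12 tested deacetylases, co-repressors and kinases 3 were higher and 5 lower, against 33.4% and 34.6% of all features. Hdac11 stood at 1.95, 1.82, 2.21 and 1.87, Hdac7 at -2.28, -1.82, -0.43 and -2.39 and Hdac6 at -1.02, -1.14, -1.15 and -1.25. Hdac5, a class IIa relative of HDAC4, stood at -0.025, 0.038, 0.14 and -0.23 and was not called. The atrophy ligase Fbxo32, atrogin-1, had a mean of 1.42 ± 0.46 (SD, n = 4), and Trim54, a sarcomeric relative of MuRF1, one of 5.78 ± 0.15 (SD, n = 4). Ddit4 and Bnip3, stress genes induced by low oxygen, were lower at -2.97, -2.16, -2.03 and -2.51 and -2.80, -2.39, -2.56 and -2.32.

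Proliferation genes were lower throughout. All 26 tested genes of S phase and replication and all 27 of mitosis were at least 2-fold lower, where 16.0% of all features were. Their medians were -2.30 and -3.03. Mki67, the antigen Ki-67 of cycling cells, stood at -4.49, -4.48, -4.07 and -4.49 (adjusted p = 9.48e-07). Cdk1, the mitotic kinase, stood at -3.57, -3.82, -3.93 and -4.01, and Ccna2, cyclin A2, at -3.13, -4.04, -3.81 and -3.94. Top2a, the DNA topoisomerase of dividing cells, stood at -3.06, -4.06, -4.06 and -4.33 and Cenpa, the centromeric histone, at -3.50, -4.29, -4.14 and -4.11. The subunits of the replicative helicase were lower, with Mcm2, Mcm3, Mcm4, Mcm5, Mcm6 and Mcm7 at means of -2.89, -3.45, -3.54, -3.33, -3.20 and -3.48. Uhrf1, which maintains DNA methylation at replication, was the lowest of the S phase list at -3.19, -3.88, -3.76 and -3.37, and cyclin E1, Ccne1, the least low at -0.16, -1.69, -1.39 and -1.68. Foxm1, a transcription factor of mitotic genes, was the least low of the mitosis list with a mean of -1.79 ± 1.86 (SD, n = 4). It stood at 0.96, -2.29, -2.83 and -3.02, so replicate 1 lay above 0 and the other 3 far below, and its call was lost when replicate 2, 3 or 4 was left out in turn (adjusted p = 0.0959, 0.119 and 0.171). These values place the control cells below a reference of unknown proliferation rate and do not compare them with growing myoblasts.

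**Figure D3:**
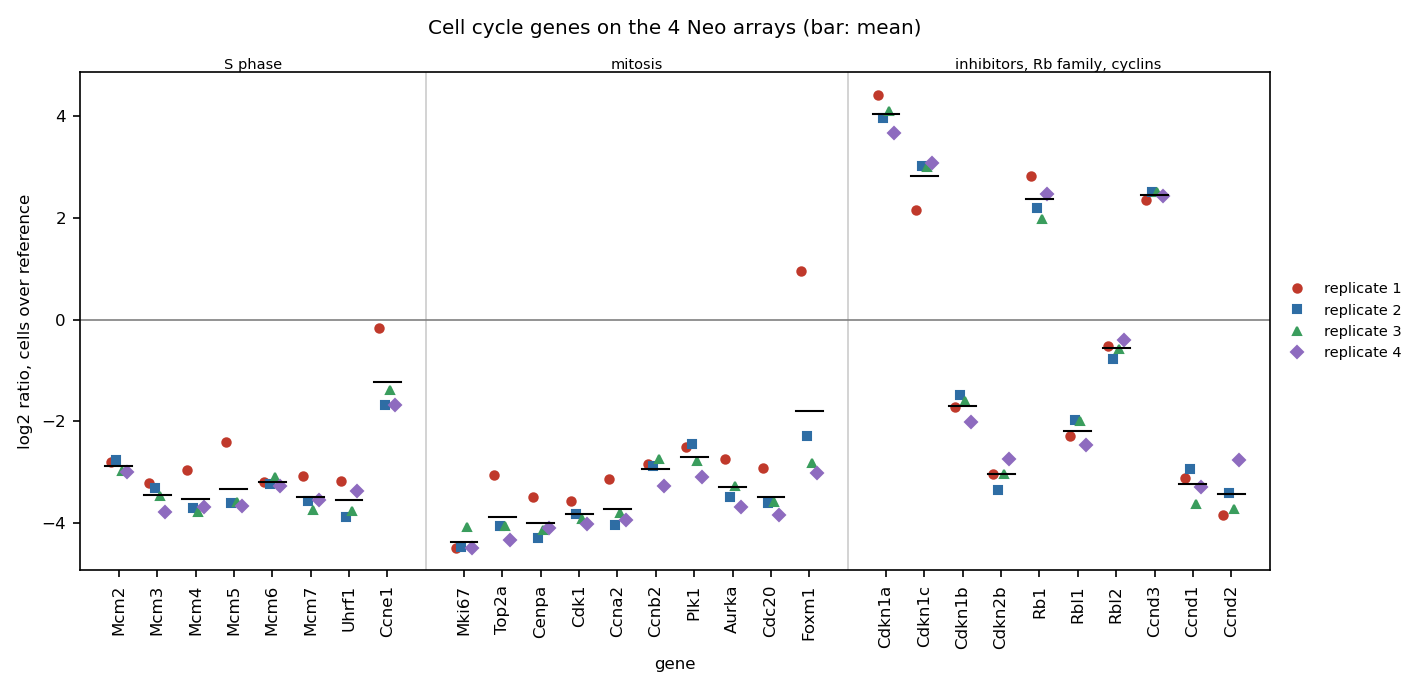
Log2 ratio (cells over reference, y axis) of cell cycle genes (x axis) on each of the 4 Neo arrays, 1 symbol per array with the mean as a bar, in 3 groups: S phase and replication, mitosis, and inhibitors, Rb family and cyclins. The first 2 groups lie below 0 with Foxm1 on replicate 1 as the exception among the points shown, while Cdkn1a, Cdkn1c, Rb1 and Ccnd3 lie above 0 on all 4 arrays.

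Promoters of the mitosis list are shown because every tested gene of the list was lower and mitotic genes are known to carry CCAAT boxes and the TTTGAA element to which the DREAM complex binds. In the 4 windows below both motifs are in capitals, searched on both strands, from 250 bases before to 50 after the start (RefSeq, GRCm38.p6). They are chr7:122159185-122159484 (plus strand) for Plk1, chr4:118437294-118437593 (minus) for Cdc20, chr9:70421505-70421804 (minus) for Ccnb2 and chr2:172370521-172370820 (minus) for Aurka.
Plk1: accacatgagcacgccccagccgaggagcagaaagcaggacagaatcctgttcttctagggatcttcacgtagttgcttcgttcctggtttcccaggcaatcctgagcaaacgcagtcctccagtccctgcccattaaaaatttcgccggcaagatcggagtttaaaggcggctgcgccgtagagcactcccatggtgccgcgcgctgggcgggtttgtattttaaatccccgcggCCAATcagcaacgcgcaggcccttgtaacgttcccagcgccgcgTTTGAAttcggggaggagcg
Cdc20: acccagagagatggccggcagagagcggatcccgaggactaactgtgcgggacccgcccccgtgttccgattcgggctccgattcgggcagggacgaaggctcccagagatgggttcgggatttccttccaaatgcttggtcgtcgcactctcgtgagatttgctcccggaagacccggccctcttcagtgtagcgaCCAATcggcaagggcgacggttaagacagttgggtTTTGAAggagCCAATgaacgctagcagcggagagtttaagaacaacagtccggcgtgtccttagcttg
Ccnb2: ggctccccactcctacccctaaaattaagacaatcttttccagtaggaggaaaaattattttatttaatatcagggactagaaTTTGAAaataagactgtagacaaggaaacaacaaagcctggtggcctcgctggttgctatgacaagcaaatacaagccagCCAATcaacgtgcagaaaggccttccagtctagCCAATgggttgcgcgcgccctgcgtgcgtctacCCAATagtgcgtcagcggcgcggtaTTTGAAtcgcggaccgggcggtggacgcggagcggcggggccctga
Aurka: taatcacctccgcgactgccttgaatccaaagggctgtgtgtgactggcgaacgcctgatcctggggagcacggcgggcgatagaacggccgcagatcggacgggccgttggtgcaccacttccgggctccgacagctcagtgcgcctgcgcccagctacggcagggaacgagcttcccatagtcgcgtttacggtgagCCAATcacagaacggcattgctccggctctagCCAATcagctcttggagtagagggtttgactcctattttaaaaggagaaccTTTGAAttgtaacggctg
Of 22 windows, for 21 of the 27 tested mitosis genes, 18 (81.8%) held CCAAT, against 37.4% of all windows, and 17 (77.3%) held TTTGAA, against 17.9%. Both were in 16 (72.7%), against 6.95%. In the 25 windows of 22 S phase genes TTTGAA was in 2 (8.0%), while the E2F-type letters TTTCGCGC or TTTGGCGC were in 9 (36.0%) against 0.813% of all windows. The 4 genes printed had means of -2.71 ± 0.29 for the kinase Plk1, -3.49 ± 0.39 for Cdc20, which starts anaphase, -2.94 ± 0.23 for cyclin B2 and -3.30 ± 0.41 for the kinase Aurka (SD, n = 4). All windows and genes share their letters with no measured binding, and the shares are a description.

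The brakes of the cell cycle split. Cdkn1a, the inhibitor p21 that rises at myoblast cell cycle exit, stood at 4.43, 3.97, 4.11 and 3.68 (adjusted p = 2.45e-06), and Cdkn1c, p57, was at least 7.07-fold over a floored reference. Rb1, the retinoblastoma protein, stood at 2.83, 2.19, 1.98 and 2.47, its relative Rbl1, p107, which cycling cells express, at -2.29, -1.98, -2.0 and -2.46, and Rbl2, p130, at -0.51, -0.77, -0.59 and -0.40. Ccnd3, the D cyclin kept in myotubes, stood at 2.35, 2.51, 2.51 and 2.44, against -3.12, -2.94, -3.63 and -3.29 for Ccnd1 and -3.84, -3.42, -3.74 and -2.77 for Ccnd2. Cdkn1b, p27, and Cdkn2b, p15, were lower at -1.70 ± 0.23 (SD, n = 4) and -3.04 ± 0.25 (SD, n = 4), and so was Myc at -2.14 ± 0.29 (SD, n = 4). Of the 18 tested genes 5 were higher and 11 lower, against 33.4% and 34.6% of all features.

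Matrix genes lay on both sides of the reference. Of 12 tested collagens 3 were higher, Col3a1 at 1.35, 2.25, 2.29 and 2.11, Col5a2 at 1.58, 1.45, 1.47 and 1.64 and Col5a1 at 0.50 ± 0.39 (SD, n = 4). The 6 probes of Col5a1 had means from -1.14 to 1.31, and its call was lost without replicate 2, 3 or 4 in turn (adjusted p = 0.117, 0.113 and 0.0650). The other 9 collagens were lower, 4 of them by at least 2-fold. Of all features 33.4% were higher, 34.6% lower and 16.0% at least 2-fold lower. Col1a2, a chain of collagen I, was the lowest at -3.20, -2.98, -2.83 and -3.19, and the basement membrane chains Col4a1 and Col4a2 had means of -1.03 ± 0.18 and -1.24 ± 0.38. Postn, periostin, stood at 2.89, 3.75, 3.94 and 3.43, and Thbs2, thrombospondin 2, at -3.66, -4.56, -4.51 and -4.56, the ends of the 26 tested matrix glycoproteins and modifying enzymes. Of these 7 were higher and 9 lower, against 33.4% and 34.6% of all features. Adam19, a metalloprotease of the meltrin family, had a mean of 2.34 ± 0.49 (SD, n = 4) and the stromelysin Mmp3 one of -3.27 ± 0.28 (SD, n = 4). Of 16 tested proteases and inhibitors 6 were higher and 5 lower. Nothing is read from the split of this list or of the glycoprotein list.

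The respiratory chain was higher by a small and even amount. All 43 tested subunits were higher, 26 of them by at least 2-fold, against 33.4% and 13.5% of all features. Their median was 1.03, and it was between 0.92 and 1.19 on the 4 arrays. The members reached from 0.29 for Ndufs7 of complex I, whose call was lost without replicate 2, 3 or 4 in turn (adjusted p = 0.0979, 0.140 and 0.0612), to 2.16 for Uqcrh of complex III. Cyc1, cytochrome c1, stood at 2.0, 1.76, 1.84 and 1.5, Sdhb of complex II at 1.47, 1.62, 1.52 and 1.43 and Cox5b of complex IV at 1.27, 1.36, 1.32 and 1.32. Of the tested subunits 2 had any value at the floor and 0 had all 4 there. Cytosolic ribosomal proteins did not share this: of 31 tested 7 were higher, 7 lower and 17 not called, with a median of 0.0086. Many ribosomal protein genes have near-identical copies, with which the probes may share signal.

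The proteasome showed its inducible subunits apart from the standard ones. Of 26 tested 15 were higher and 3 lower, against 33.4% and 34.6% of all features, with a median of 0.33. Psmb5 and Psmb7, catalytic subunits of the standard proteasome, stood at 1.59, 1.22, 1.32 and 0.89 and 1.65, 1.39, 1.42 and 0.86. Psmb8 and Psmb9, which replace catalytic subunits in the immunoproteasome of haematopoietic and interferon-treated cells, stood at -4.61, -3.33, -3.23 and -3.44 and -3.63, -2.69, -3.75 and -3.40. Of 16 tested genes of sterol and fatty acid synthesis 9 were higher and 4 lower, against 33.4% and 34.6% of all features. At least 2-fold higher were 4 of them. The highest were the desaturase Scd1 at 2.17, 3.01, 2.87 and 2.77 and Dhcr7 at 2.52, 2.05, 2.13 and 2.21. Of chaperone and stress genes 15 of 22 were lower, against 34.6% of all features. Hsp90b1, the chaperone of the endoplasmic reticulum, stood at -1.79, -2.25, -2.17 and -2.58 and the metallothionein Mt2 at -1.59, -2.45, -2.44 and -2.93. Hspb1, a small heat shock protein, was higher at 3.45, 2.38, 2.62 and 2.79.

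Most tested myeloid and lymphocyte genes were lower in the control cells. A low ratio does not tell little RNA in the cells from much in the reference. Of 13 tested macrophage and myeloid genes 12 were at least 2-fold lower, where 16.0% of all features were. None was higher, and their median was -3.48. Cd68 stood at -4.97, -5.59, -5.37 and -5.97, the protease gene Ctss at -5.40, -5.35, -6.16 and -6.22, the lysozyme gene Lyz2 at -4.34, -4.38, -4.18 and -3.39, and Spi1, PU.1, at -3.87, -4.02, -3.92 and -4.18. Lyz1 and Lyz2 are near copies and cannot be told apart with certainty. Of 11 tested lymphocyte genes 10 were lower, against 34.6% of all features. Cd3e of the T cell receptor stood at -4.33, -4.02, -4.11 and -4.29, Cd79b of the B cell receptor at -4.83, -4.46, -4.94 and -5.02 and Lat at -3.67, -3.39, -3.67 and -3.83. Lsp1 was higher at 0.86, 1.78, 1.26 and 0.88, though its 3 probes had means from -0.99 to 2.40. A further 15 myeloid and 14 lymphocyte genes had probes without values on all 4 arrays, and the tests leave those out. The rule for missing values is unknown, so a gene weak in the cells may have been tested only where the reference was bright. These counts therefore describe the tested genes alone, and their distance from the shares of all features is no independent support.

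Hepatocyte genes were hardly measured, and the labelling protocol of the reference names liver. Of 30 hepatocyte genes, 23 had probes without values on all 4 arrays, 6 had no probe that named them alone, Alb among them, and 1 was tested. That gene, Hp, haptoglobin, stood at -0.80, -0.91, -1.05 and -1.20, and macrophages and fat can express it too. Of the 31 hepatocyte probes, 6, 3, 9 and 9 had a value on replicates 1 to 4, against 24, 23, 26 and 27 of 41 myeloid probes. Fga, Fgb and Fgg, the fibrinogen chains, and Cyp2e1 had no value on any array. The rule for missing values is unknown, so these counts say nothing of the tissue the reference came from.

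Epithelial genes gave both signs. Of 32 listed 13 were tested, 8 lower and 4 higher, against 34.6% and 33.4% of all features. Epcam stood at -4.49, -4.77, -4.76 and -4.05, the epithelial factor Elf3 at -3.66, -2.78, -3.98 and -3.72 and Spint2 at -2.95, -2.87, -3.26 and -2.65, while the plakophilin Pkp1 stood at 3.99, 3.82, 3.77 and 3.26 and Trp63, p63, at 3.41, 3.57, 3.68 and 3.03. The simple keratins Krt8 and Krt18 had no value on any array. Germ cell genes were hardly measured, 2 of 23 tested, and of the pluripotency genes Pou5f1 and Sox2 had no value on any array. Within that list imprinted genes lay at both ends, H19 at 7.0, 6.46, 6.49 and 5.60, Peg3 at 4.69, 4.31, 4.15 and 3.85 and Dlk1 at -5.19, -4.91, -4.54 and -5.49.

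Some genes known from other excitable tissues were above the reference in these cells. Of 24 listed neural genes 8 were tested, 7 higher and 0 lower, against 33.4% and 34.6% of all features. Of the 8, 5 had at least 1 value that met the floor rule. With these left out 3 remained, 2 of them higher, with a median of 1.34. Higher genes included Nes, nestin, an intermediate filament that myoblasts also make, at 4.31, 3.83, 3.81 and 4.33. Others were the synapsin Syn1 at 3.48, 3.80, 3.86 and 4.06, the kinase gene Camk2a at 3.99, 3.96, 3.32 and 2.89 and Tubb3 at 4.70, 2.97, 2.91 and 3.09. The defining neuronal genes Snap25 and Syt1, and Gfap of astrocytes, had no value on any array. Of cardiac genes 3 of 6 were higher, with the homeobox gene Nkx2-5 at 4.95, 3.57, 3.80 and 3.65, while Gja1, connexin 43, was lower at -3.13, -2.08, -1.99 and -1.93 and Myl7, Mybpc3 and Ryr2 had no value on any array. Of fibroblast genes 9 of 16 were lower and 1 higher, with the receptor Pdgfra at -5.08, -4.22, -4.40 and -4.08 and the chemokine Cxcl12 at -4.83, -3.36, -3.71 and -4.42. Actg2, a smooth muscle actin, stood at 1.80 ± 0.86 (SD, n = 4) and Smtn, smoothelin, at 2.95, 2.99, 2.90 and 2.53, in a smooth muscle list with 6 of 13 higher and 6 lower. Adipocyte genes gave 2 higher and 2 lower of 6, endothelial and pericyte genes 3 and 2 of 7, bone and cartilage genes 2 and 1 of 3, erythroid and platelet genes 2 and 0 of 2, and kidney and mammary genes 0 and 2 of 3. Of all features 33.4% were higher and 34.6% lower, and with so few genes nothing is read from these counts.

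Hox genes, which hold a record of body position, were split. Hoxa11 stood at 2.08, 1.96, 1.79 and 1.63, Hoxa10 at 1.05, 1.04, 1.21 and 0.91 and Hoxc10 at 1.26, 1.52, 1.40 and 1.25, all higher. Hoxb7 stood at -2.43, -2.18, -2.21 and -2.68, Hoxb9 at -1.26, -1.76, -1.92 and -1.96 and Hoxd9 at -1.99, -2.48, -1.77 and -1.93, all lower. Of the 16 tested genes 7 were higher and 8 lower, against 33.4% and 34.6% of all features.

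Outside the lists, the genes farthest from the reference were ranked among 7888 named genes with no value at the recognised floor of the reference. A floor of the cells was not read, so whether the lowest values are bounds is unknown. The highest 15 included, beside Ckb, Cox6a2, Tmod1, Fst, Cacnb1, Cdkn1a and Tmem38a of the lists, Serinc2 at 5.37, 5.46, 5.13 and 4.91, Popdc3, a cyclic AMP-binding membrane protein of striated muscle, at 5.54, 4.68, 4.72 and 4.76, and the water channel Aqp5 at 4.65, 4.70, 4.91 and 4.50. The others were Tm6sf1, the sugar transporter Slc2a6, Ptges3l, Ttc9 and the sodium pump subunit Atp1b2, with means of 4.21, 4.04, 4.04, 3.90 and 3.87. Tmod1, tropomodulin 1, which caps thin filaments, had a mean of 4.84 ± 0.21 (SD, n = 4), and Tmem38a, the TRIC-A channel of the sarcoplasmic reticulum, one of 5.22 ± 0.49 (SD, n = 4).

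The lowest 15 were led by genes of blood cells. Mzb1, a chaperone of B and plasma cells, stood at -6.56, -6.06, -6.0 and -5.77, 68.5-fold lower (adjusted p = 6.45e-07). Gpnmb, a glycoprotein of macrophages and pigment cells, stood at -6.06, -6.06, -6.04 and -6.11, with the 4 arrays within 0.066 log2 units. Ctss and Cd68 followed with the values above, then Efemp1, fibulin-3, at -6.06, -5.30, -5.27 and -4.74. Lilrb4a, an inhibitory receptor of myeloid cells, stood at -5.21, -5.14, -5.52 and -5.34. Eva1b, Mycl, Tmem176b, Arhgap45, Dlk1, Tmem176a, Cd79b and the acute phase gene Saa3 had means of -5.32, -5.18, -5.07, -5.05, -5.03, -5.0, -4.82 and -4.81. Thy1, a surface protein of T cells, neurons and fibroblasts, stood at -3.84, -4.22, -5.59 and -6.46, the widest spread of the 15. In all, 232 named genes were at least 8-fold higher and 157 at least 8-fold lower, and 70 and 13 at least 32-fold.

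**Figure D4:**
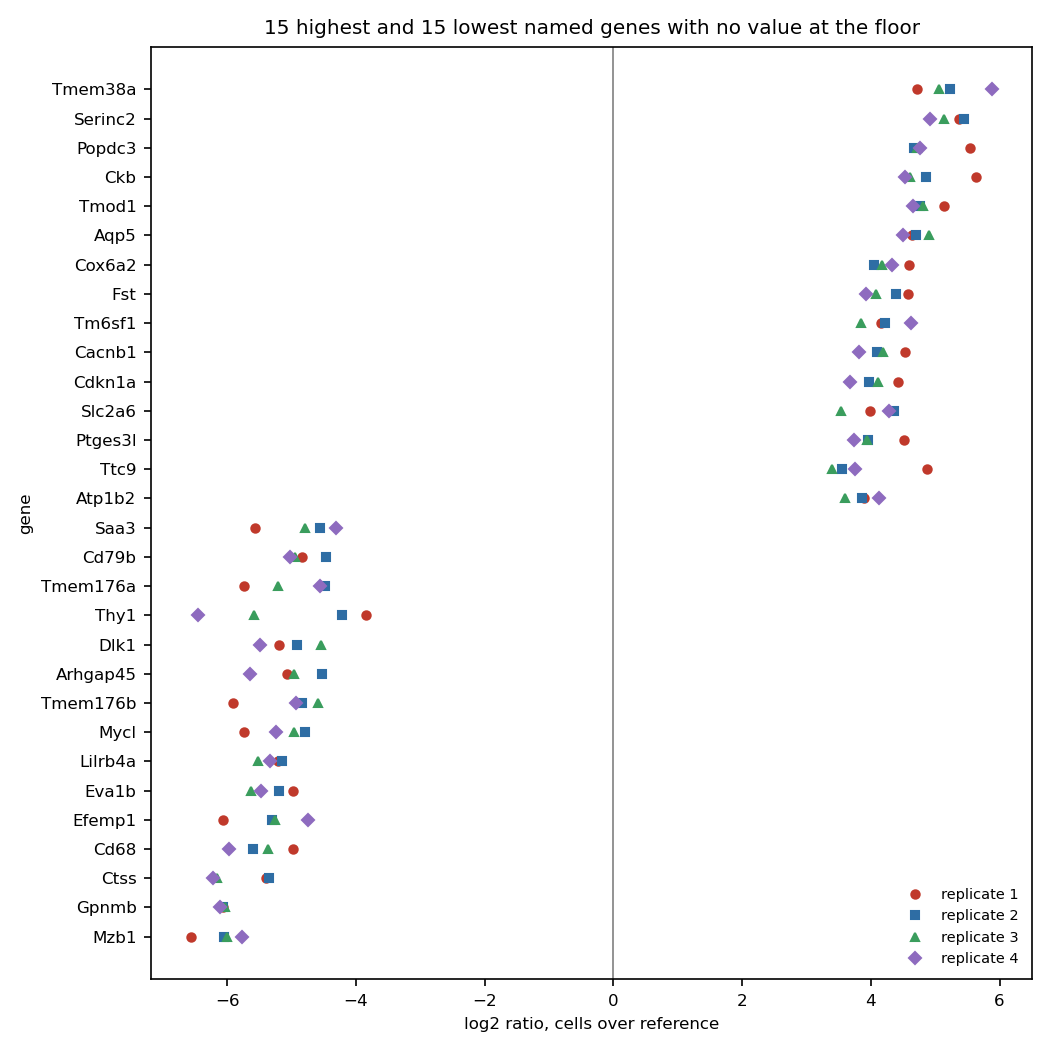
Log2 ratio (cells over reference, x axis) of the 15 highest and 15 lowest named genes with no value at the floor (y axis), on each of the 4 Neo arrays, 1 symbol per array. Among these the highest gene, Tmem38a, has a mean of 5.22 and the lowest, Mzb1, one of -6.10. Genes with higher means than Tmem38a were left out by the floor rule. Thy1 and Ttc9 are spread wider than their neighbours.

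For genes whose reference was at a recognised floor on all 4 arrays, 134 named genes, only bounds can be given. The 12 with the brightest cells held, beside Abra, Trdn and Csrp3, Lmod2, a leiomodin of thin filaments, at least 77.8-fold, Sh3bgr, at least 64.1-fold, Ctrb1, named for a chymotrypsinogen of the pancreas, at least 63.6-fold, Chrnd, at least 53.3-fold, Klhl13, at least 47.7-fold, and Xirp1, a Z-disc and adhesion protein, at least 45.5-fold. Ankrd2, the kinase gene Fn3k and the inositol phosphate kinase gene Ip6k3 were at least 45.3-fold, 40.2-fold and 40.1-fold higher. The 4 values of Ctrb1, 5.88, 5.82, 6.13 and 6.14, rest on 1 probe. This selection by cell signal sets no order of the ratios, and it leaves out genes with any ratio of 100 or more, a choice made after seeing the data.

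The 4 arrays were not equally alike. Over the 15203 features, replicates 2, 3 and 4 correlated with each other at 0.951, 0.970 and 0.949 (2 with 4, 2 with 3, 3 with 4), and replicate 1 with them at 0.897, 0.902 and 0.904, as a description across features that share the same reference. Replicate 1 lay over 1 log2 unit outside the range of the other 3 in 255 named genes, against 21, 32 and 49 for replicates 2, 3 and 4. The median SD of a named gene over the 4 arrays was 0.23. The 8 largest SDs among named genes with no value at the floor were those of Isg15, Ifit1, Foxm1, Zbp1, Il33, Ahcyl1, Ifit3 and Ifi27l2b. Isg15, an interferon-induced ubiquitin-like protein, stood at -3.21, 1.09, 1.17 and 0.95, Ifit1 at -2.14, 1.89, 1.93 and 1.48, Ifit3 at -0.88, 2.54, 2.75 and 2.08 and Zbp1, a sensor of foreign nucleic acid, at -2.15, 1.53, 1.5 and 0.95. In all 4 the first array lay below the reference and the other 3 above it. The median of the 22 tested interferon genes was -1.49, 0.27, 0.38 and -0.034. Of the 22, 5 were higher, 7 lower and 10 not called, where 33.4% of all features were higher and 34.6% lower. Without replicate 1, 9 were higher and 7 lower, where 5258 and 5580 of the 15203 features were. Nothing is read from these counts. Without that array the means were 1.07 for Isg15 (adjusted p = 3.40e-04), 1.77 for Ifit1 and 1.33 for Zbp1. None of these genes was called over all 4 arrays. Ifit3 was called over all 4 and lost its call without replicate 2, 3 or 4 in turn (adjusted p = 0.115, 0.126 and 0.150). The cytokine gene Il33 stood at -2.70, 0.44, 0.57 and 1.03, and without replicate 1 at a mean of 0.68 (adjusted p = 0.00790). Isg15, Ifit1, Zbp1 and Il33 were named for their large SD, which replicate 1 set. Leaving out that array favours a small p, so these p-values are a description only. Ifi27l2b stood at -3.94, -0.55, -0.23 and -1.27 and Ahcyl1 at -1.48, 1.98, 1.11 and -1.16, the latter with replicates 1 and 4 below 0. Of the interferon genes, Igtp was higher on every array at 0.43, 0.52, 0.57 and 0.42, and Tap1, the peptide transporter of antigen presentation, lower on every array at -3.12, -2.54, -2.21 and -2.77. The mitosis list was also less low on replicate 1, with medians of -2.64, -3.15, -3.28 and -3.28, while the Z-disc list gave 4.51, 4.87, 5.26 and 4.59. Both channels of an array enter these values, so a difference in the cells and one in the reference of that array cannot be told apart.

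**Figure D5:**
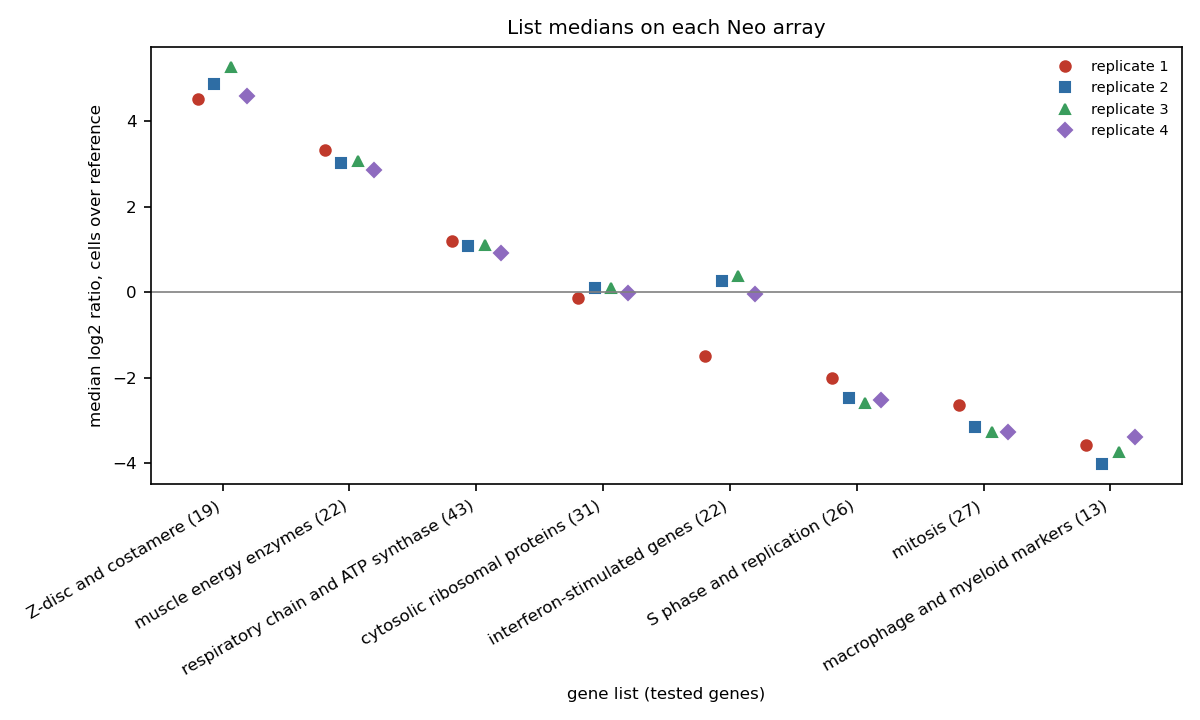
Median log2 ratio (cells over reference, y axis) of the tested members of 8 gene lists (x axis, with the number tested) on each of the 4 Neo arrays, 1 symbol per array. The interferon list stands at -1.49 on replicate 1, the mitosis list is least low there at -2.64, and the respiratory chain list stays between 0.92 and 1.19.

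Where a gene had several complete probes, they mostly lay together. Of 1565 such genes the probes of 1222 lay on the same side of 0 and those of 1299 within 1 log2 unit, with a median range of 0.34.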

How the data were processed

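RNA of C2C12 cells (Cy5) and a murine reference RNA (Cy3) were hybridised together on 2-colour arrays, per the labels. The deposited values are log2 ratios, 1 per probe and array; for the scanner, background correction, normalization and missing values, the sources used here give none. That each is the log2 of a rounded ratio was found from the values. The 4 Neo columns were used, with 19248 to 22193 values an array. Their number limits the precision, and signal depth is unknown. Each array was centred on its median (deposited medians 0.00576 to 0.0286). Probes with 4 values were kept, and those naming a single gene in GEO's platform annotation were averaged by gene, with symbols updated by gene identifier through RefSeq (GRCm38.p6). Of 31769 probes 18976 named 1 gene, 404 several and 12389 none. An intercept was fitted with lmFit and eBayes (limma 3.58.1, R 4.3.3) over all 15203 features with Benjamini-Hochberg adjustment at 0.05, and in a 2-fold count the mean was also at least 1 log2 unit from 0. The fit was tested on simulated data. The 4 HDAC4 columns were not used.

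A value met the floor rule when 10 times its ratio was whole within 0.001 and at least 10, and the rule cannot be read at ratios of 100 or more. Members and lists were chosen with earlier results of these data known. The text names the 4 markers, the 15 highest and 15 lowest called genes with no value at the floor and 1 sign on all arrays, the 12 with the highest cell signal at the floor of the reference on all arrays (also, chosen after seeing the data, among those with no ratio of 100 or more), the 8 with the largest SD, every tested gene of lists of up to 24 and the 4 highest and 4 lowest of longer lists, though not every such gene is described; no floor of the cells was read, so none is named for it. Named outside the rule, after their values were seen, were Actn3, Aurka, Ccna2, Ccnb2, Cdc20, Cox5b, Eno3, Igtp, Mcm2, Mcm5, Mcm6, Pfkm, Pgam2, Plk1, Sdhb, Slc2a4 and Spi1, and the genes of the closing observations except Coro1a. Promoters came from RefSeq (GRCm38.p6). Centring, quantile normalization, at least 3 values, single probes, floor values left out, trend and robust eBayes, treat and each array left out were tried as alternatives.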

Additional observations from a re-analysis of the deposited data

Results flagged for a closer look

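For 256 genes named in the text and the medians of 40 lists, the 4 arrays were searched for a value whose gap to the nearest other exceeded Dixon's 95% critical share of the range. Chance flags about 1 in 20 such groups of 4, and 31 of 296 were found, 26 at replicate 1, 0 at replicate 2, 1 at replicate 3 and 4 at replicate 4. The genes and lists share arrays and are not independent. Some genes were named for a large SD or after their values were seen, so the count cannot be compared with the chance share.

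Replicate 1 was apart on the low side for Ankrd2 (4.38), Bmp4 (-2.62), Cdkn1c (2.16), Chrne (0.44), Gja1 (-3.13), Ifit1 (-2.14), Il33 (-2.70), Isg15 (-3.21), Jph1 (3.51), Myh2 (5.64), Psmb8 (-4.61), Zbp1 (-2.15), the thick filament and myosins list (5.64) and the cardiac markers list (0.060). It was apart on the high side for ACTA1 (9.88), Gapdh (0.41), Mcm4 (-2.97), Mcm5 (-2.42), Nkx2-5 (4.95), Popdc3 (5.54), Thbs2 (-3.66), Tpm2 (4.08), Tubb3 (4.70), Xirp1 (6.17), the S phase and replication list (-2.0) and the stress and chaperone genes list (-0.55). Replicate 3 was apart on the high side for Mki67 (-4.07), and replicate 4 on the low side for Coro1a (-5.32), Eno3 (4.65), Fbxo32 (0.73) and Trdn (5.66). All are log2 ratios, and those of lists are medians over the tested members. What sets replicate 1 apart was not tested.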

How the results depend on the processing

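No paired analysis was possible because only the Neo group was tested, so no replicate number is shared between groups compared. The numbers of features higher, lower, 2-fold higher and 2-fold lower stayed within 1.5 times of those in the report in all but 3 cases. Tested against a log2 ratio of 0.5 rather than 0 (treat), 2495 features were higher and 2902 lower, a stricter question by construction. With features left out that had any value at the floor, 1219 were at least 2-fold higher. With an array left out in turn the counts were 4321 to 5258 higher, 4626 to 5580 lower, 2023 to 2084 2-fold higher and 2390 to 2477 2-fold lower. Centring on probes off the floor raised every value and moved the higher share of 2-fold calls from 45.7% to 51.9%, and leaving out features with floor values moved it to 33.4%.

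Of 246 called genes named in the text, 229 kept their side and call in every fit run on them. Where probes of a gene were tested on their own, the probe least in the gene's direction lay on the other side for Asph (-1.22), Col5a1 (-1.14), Flnc (-0.24), Lsp1 (-0.99) and Tpm1 (2.64). With an array left out in turn, Isg15 ran from -0.39 to 1.07 and Il33 from -0.57 to 0.68, each above 0 without replicate 1 alone. The treat test lost 16 of the named genes. By more than the SD of their 4 array medians, list medians turned sign for growth factors, to -0.12 for single probes and -0.29 without floor values, for smooth muscle, to 0.63 for single probes, and for cardiac genes, to -0.24 without floor values. Within that SD 7 lists crossed 0: interferon genes to 0.21 and fusion genes to 0.24 without replicate 1, myoblast factors to 0.10 and ribosomal proteins to -0.068 without replicate 3, matrix proteases to 0.12 and matrix glycoproteins to 0.027 without replicate 4, and smooth muscle to 0.028 with at least 3 values. Some of these crossed under other settings too, by less. The causes were not tested.

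Precision is limited by the number of arrays, 4, and by the floor of the reference, which holds 7.80% to 12% of the values on an array. The dyes were not swapped, and the reference was not replicated.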

Other observations

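Genes outside the lists, chosen here after their values were seen, stood beside the contractile genes. Apobec2, a deaminase relative of striated muscle, stood at 7.62, 7.95, 7.38 and 8.08. Hjv, hemojuvelin, a BMP co-receptor of muscle and liver, stood at 6.81, 6.99, 7.24 and 7.04, and Cavin4, a caveola protein of muscle, at 7.07, 6.78, 6.37 and 6.78. Itgb1bp2, melusin, an integrin-binding protein of striated muscle, stood at 6.62, 6.23, 6.18 and 6.76, and the small heat shock gene Hspb2 at 6.25, 5.91, 5.16 and 5.56. Fzd10, a Wnt receptor, stood at 6.33, 6.57, 6.55 and 6.70. Each of these had at least 1 value that met the floor rule, so the ratios there are lower bounds, or cannot be told from them at 100 or more.

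On the low side, with no value at the floor, were further genes of blood cells, Coro1a of the myeloid list at -4.57, -4.49, -4.44 and -5.32, the signalling gene Vav1 at -3.82, -3.61, -4.23 and -3.86 and the platelet and leukocyte gene Plek at -3.64, -4.18, -4.68 and -4.61. Nrn1, neuritin, stood at -4.41, -3.89, -5.03 and -4.97 and Crabp1, a retinoic acid-binding protein, at -4.26, -4.64, -4.69 and -4.17. The linker histone gene H1f5 stood at -4.85, -4.01, -4.11 and -4.56 and the chromatin gene Hmgb2, which cycling cells express, at -4.20, -4.47, -4.59 and -4.33. The imprinted gene Grb10 stood at -4.56, -4.35, -4.46 and -4.50.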
